A study of Mus musculus with 18 samples.

Results

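The account covers 38 genes whose mean expression in the libraries labelled KO was at most 50% of the mean in WT libraries and at most 50% of the mean in NHD13 libraries. Expression is given as FPKM, fragments per kilobase of gene scaled to the library total, as the authors deposited it. Genes were considered where the WT and NHD13 means were both 2 FPKM or more. Genes on X and Y, immunoglobulin segments, the B lymphoid genes Vpreb1, Vpreb3, Igll1, Cd79a, Cd79b, Pax5 and Ebf1, and Afap1 were left out. Of 53946 genes in the table, 7436 were eligible by these levels and 47 met both ratios. A total of 9 of the 47 were left out, which leaves 0.511% of the eligible genes. The low KO level is what chose the genes, so it is a description and not a finding. The converse rule, a KO mean at least 2 times both other means at the same floor, held for 7 genes.

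The RNA series has 12 mouse libraries, 3 in each of 4 groups, all on the C57BL/6 strain, with no age or treatment stated. WT stands for sorted hematopoietic stem and progenitor cells (HSPCs) from the bone marrow of C57BL/6 mice without the transgene. NHD13 stands for marrow HSPCs of NHD13/Setd2 flox/flox mice, which carry the NUP98-HOXD13 fusion transgene and floxed Setd2 alleles. KO stands for marrow HSPCs labelled NHD13/Setd2 KO, which carry the same transgene, with Setd2 deleted through Mx1-Cre. AML stands for spleen cells positive for C-Kit from mice labelled NHD13/Setd2 KO - AML, that is, with acute myeloid leukemia, so tissue and sort differ from the other groups as well as stage. Mx1-Cre is an interferon-inducible driver that is active in many cell types besides blood, and the WT group lacks the floxed alleles as well as the transgene. Each of these 4 groups also has 1 bisulfite library, which reads DNA methylation across the genome. For trimethylation of histone H3 at lysine 36 (H3K36me3), 1 ChIP-seq library was made from C-Kit+ spleen cells labelled NHD13 - AML and 1 from those labelled NHD13/Setd2 KO - AML. Whether the 3 replicates of a group are separate animals is not stated, and a p-value here therefore covers only how far these libraries differ from one another, which may be technical spread.

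As background, SETD2 is the enzyme that places H3K36me3 on the bodies of transcribed genes, where the mark helps recruit DNA methylation and keeps transcription from starting inside genes. Methylation of CpG-rich DNA around a transcription start is known to accompany stable silencing of the gene. NHD13 mice are a model of myelodysplastic syndrome, in which marrow progenitors make too few mature blood cells and can turn leukemic. The 38 genes belong to no single pathway. They include genes of early lymphoid and antibody-secreting cells, enzymes of leukotriene and histamine metabolism, mitochondrial and lipid enzymes, and a cyclin-dependent kinase inhibitor.

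Start regions of 5 of these genes are shown first, because their RNA was nearly absent in the AML libraries and because the authors' deposited table lists a region over each of them as more methylated in AML than in KO. Each sequence runs 5′ to 3′ on the gene's strand, from 250 bases before to 50 bases after a start annotated by RefSeq on GRCm38.p6, the build of the deposited files. CpG dinucleotides, the sites that carry the methylation measured here, are in capitals. The Alox5 window is chr6:116461129-116461428 on the minus strand, the Tcf19 window chr17:35516775-35517074 on the minus strand, and the Ccdc91 window chr6:147476115-147476414 on the plus strand. The Arrdc4 window is chr7:68749189-68749488 on the minus strand and the Prss50 window chr9:110857714-110858013 on the plus strand.
Alox5: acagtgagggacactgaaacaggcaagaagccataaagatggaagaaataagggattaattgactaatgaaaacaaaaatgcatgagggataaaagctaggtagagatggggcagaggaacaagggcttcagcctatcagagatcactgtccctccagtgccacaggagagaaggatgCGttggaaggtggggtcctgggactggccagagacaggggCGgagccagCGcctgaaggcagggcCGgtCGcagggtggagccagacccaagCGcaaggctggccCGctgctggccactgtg
Tcf19: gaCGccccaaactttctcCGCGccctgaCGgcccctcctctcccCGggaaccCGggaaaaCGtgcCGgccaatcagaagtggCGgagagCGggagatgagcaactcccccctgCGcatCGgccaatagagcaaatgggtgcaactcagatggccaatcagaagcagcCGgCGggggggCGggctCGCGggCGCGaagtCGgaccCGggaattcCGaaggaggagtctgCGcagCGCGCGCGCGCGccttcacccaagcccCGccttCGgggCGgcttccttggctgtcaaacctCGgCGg
Ccdc91: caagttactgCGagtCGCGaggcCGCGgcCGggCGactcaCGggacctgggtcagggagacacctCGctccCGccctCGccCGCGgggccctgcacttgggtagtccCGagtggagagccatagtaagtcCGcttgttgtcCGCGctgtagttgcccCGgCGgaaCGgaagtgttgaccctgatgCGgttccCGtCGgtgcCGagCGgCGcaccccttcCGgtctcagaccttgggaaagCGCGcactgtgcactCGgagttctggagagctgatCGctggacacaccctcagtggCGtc
Arrdc4: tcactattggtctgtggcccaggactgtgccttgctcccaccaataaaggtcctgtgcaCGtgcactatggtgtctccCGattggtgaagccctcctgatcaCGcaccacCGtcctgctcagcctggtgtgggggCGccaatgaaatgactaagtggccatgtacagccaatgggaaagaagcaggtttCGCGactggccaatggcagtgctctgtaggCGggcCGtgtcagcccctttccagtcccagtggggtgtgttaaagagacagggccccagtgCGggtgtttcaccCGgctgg
Prss50: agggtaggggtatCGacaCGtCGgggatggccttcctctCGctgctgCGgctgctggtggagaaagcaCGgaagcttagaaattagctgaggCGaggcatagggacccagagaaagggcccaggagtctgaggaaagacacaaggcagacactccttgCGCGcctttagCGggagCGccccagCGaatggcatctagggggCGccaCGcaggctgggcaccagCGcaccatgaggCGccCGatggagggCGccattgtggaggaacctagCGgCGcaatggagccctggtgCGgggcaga
The windows hold 7 CpG dinucleotides in Alox5, 34 in Tcf19, 32 in Ccdc91, 11 in Arrdc4 and 21 in Prss50. In Alox5 the listed region covers 122 of the 300 bases and all 7 of these dinucleotides, and in the other 4 genes it covers the whole window. Ccdc91 has another annotated start, not printed, and there the region covers 89 of the 300 bases of the window.

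Total counts ran from 18673704 to 28127686 per library. Setd2 itself was at 2.80 ± 0.23 FPKM (SD, n = 3) in KO and 2.54 ± 0.14 in NHD13, and the AML libraries, also labelled as Setd2 KO, were at 21.1 ± 0.28 against 4.17 ± 0.47 in WT. The count over the whole gene thus did not show the deletion in either group and went against the label in AML, although a deletion of single exons would not be seen by such a count. KO and AML libraries are called Setd2 KO by their labels only. The stem cell marker list summed to between 101 and 107 FPKM in NHD13 libraries, against 408 to 496 in WT, 315 to 337 in KO and 284 to 288 in AML. In NHD13 libraries Flt3 averaged 0.138 FPKM and Cd34 1.41 FPKM, while the neutrophil list summed to between 127905 and 147985 FPKM, against 21933 to 22658 in WT and 39199 to 41571 in KO. Xist averaged 10.3 FPKM in WT, 4.30 in NHD13, 0.0033 in KO and 0.00097 in AML, and the Y-linked gene Eif2s3y averaged 0, 0.0032, 13.4 and 20.3 FPKM. The sex of the mice thus cannot be told apart from the KO label, nor from AML in its comparisons with WT and NHD13. In these bulk libraries, fewer cells of a type and less RNA per cell cannot be told apart.

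Within the chosen genes the fall was uneven. The lower of the WT and NHD13 means was 2.004 to 23.0 times the KO mean, with a median of 2.64 times. A total of 14 of the 38 genes stood at 3 times or more, 7 at 5 times or more, and 2 at 10 times or more. Just inside the threshold were Sc5d at 2.004, Chst13 at 2.01 and Tmem8 at 2.04 times, and just outside were Ndrg2 at 1.996, Bhlhe40 at 1.97 and Selenom at 1.97 times. In all 38 genes the 3 KO libraries lay below all 6 WT and NHD13 libraries, a pattern that 6.47% of the 16233 tested genes show and that the choice of genes largely fixes. The contrasts the choice used gave adjusted p-values below 0.05 (edgeR's quasi-likelihood test, Benjamini-Hochberg adjustment over 16233 genes) for 38 of 38 genes lower in KO than NHD13, where 20.3% of tested genes were lower, and for 37 of 38 (all but Gm23205) lower in KO than WT, where 20% were. Median levels were 5.39 FPKM in WT, 5.33 in NHD13, 1.40 in KO and 2.0 in AML.

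**Figure D1:**
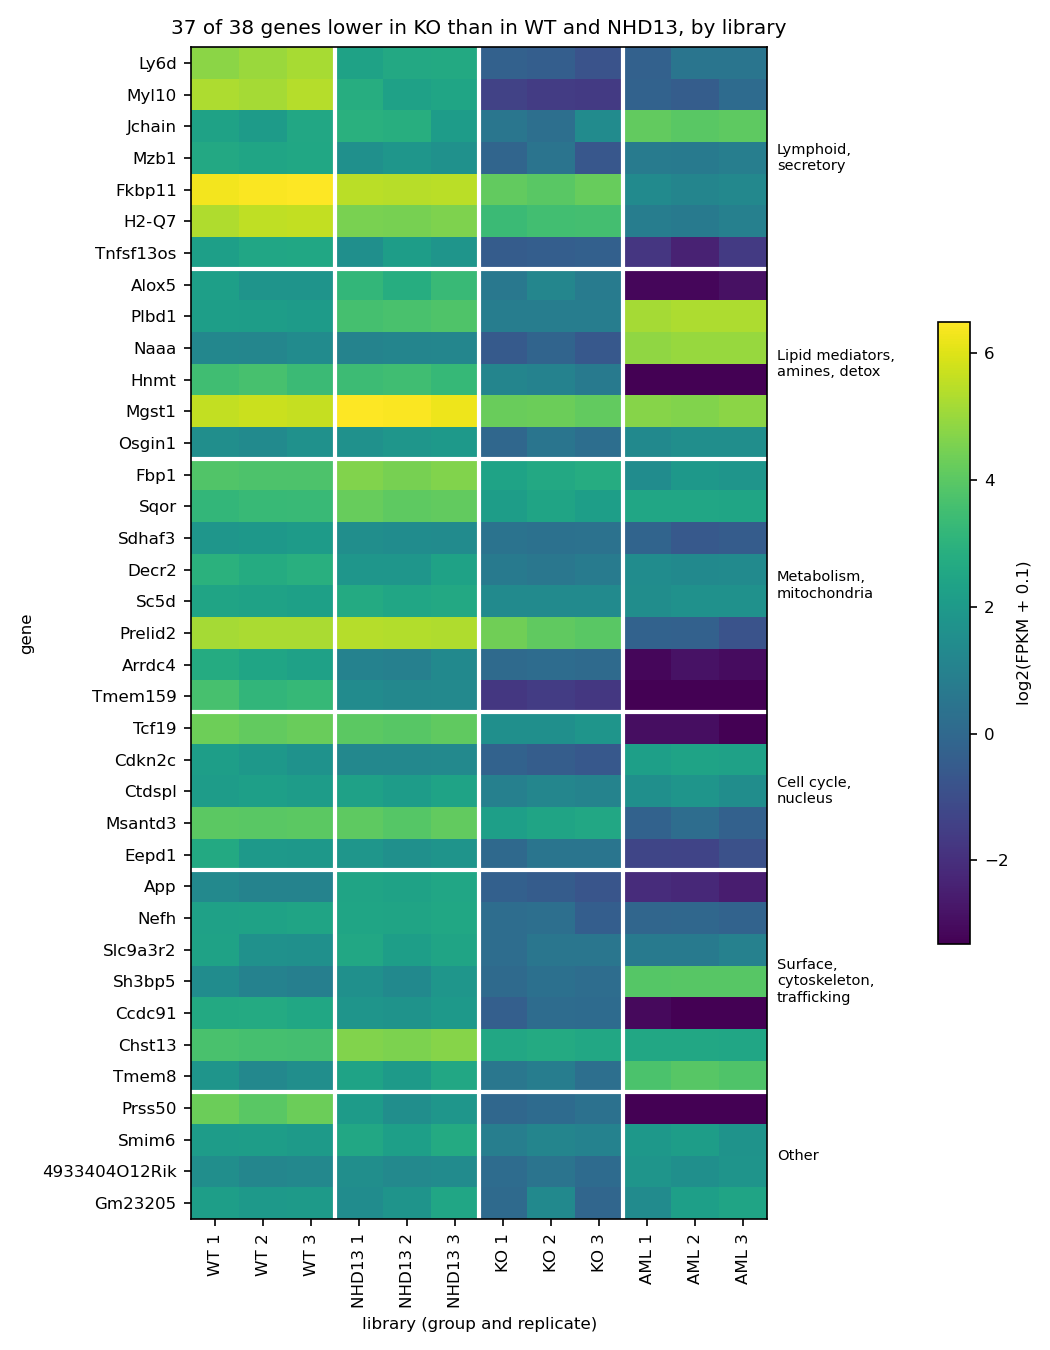
Expression of 37 of the 38 genes in the 12 libraries, as log2(FPKM + 0.1), with genes in rows grouped by role and libraries in columns. The KO columns are darker than the WT and NHD13 columns of the same gene, while AML columns range from 0 counts (Hnmt, Prss50, Tmem159) to levels above all others (Plbd1, Naaa).

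The 7 genes of lymphoid and secretory cells included the highest ratio, 23.0 in Myl10. Myl10, a myosin light chain gene, was at 39.1, 35.8 and 42.3 FPKM in WT, 6.84, 4.83 and 5.30 in NHD13, 0.285, 0.236 and 0.218 in KO, and 0.757, 0.648 and 0.969 in AML. Its levels fell in separate ranges in the 4 groups, with WT highest and KO lowest. Ly6d, a surface protein that marks lymphoid progenitors committed to the B lineage, was at 27.4, 32.8 and 37.2 FPKM in WT, 5.02, 5.90 and 6.08 in NHD13, 0.723, 0.669 and 0.470 in KO and 0.720, 1.33 and 1.31 in AML. Here the KO and AML libraries overlapped slightly, and both lay far below the other groups. Mzb1, an endoplasmic reticulum protein that helps assemble antibodies, was at 5.30 to 6.00 FPKM in WT, 2.93 to 3.51 in NHD13, 0.532 to 1.26 in KO and 1.49 to 1.72 in AML.

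Jchain, which joins antibody units into polymers, was the lymphoid gene that went highest in AML. It was at 4.90, 4.07 and 5.77 FPKM in WT, 7.38, 6.95 and 4.25 in NHD13, 1.34, 1.1 and 2.59 in KO, and 17.3, 15.8 and 16.8 in AML. The WT and NHD13 libraries overlapped, the KO libraries lay below them and the AML libraries above. Fkbp11, a prolyl isomerase of the secretory pathway, was the highest of the 38 genes in WT, at 80.9, 86.2 and 90.3 FPKM. It was at 44.3, 42.9 and 45.1 in NHD13, 17.6, 15.6 and 18.4 in KO and 2.49, 2.13 and 2.33 in AML, so the groups stepped down without overlap. H2-Q7, a nonclassical MHC class I gene, stepped down in the same order from 45.1 ± 4.5 FPKM in WT to 23.2 ± 1.1, 11 ± 0.77 and 1.69 ± 0.16 (SD, n = 3 each). H2-Q7 has near-identical neighbours in the MHC, so how reads were split among them is uncertain. Tnfsf13os, an RNA annotated antisense to Tnfsf13, averaged 5.24 FPKM in WT, 3.55 in NHD13, 0.667 in KO and 0.169 in AML, and its reads cannot be told apart from those of Tnfsf13, since no source used here says whether the counting used strand.

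Markers of B cells were uneven in KO. The 35 B cell markers that are not among the 38 summed to 437 to 460 FPKM in WT, 406 to 421 in NHD13, 317 to 326 in KO and 297 to 305 in AML, and 15, 11, 7 and 10 of them averaged 1 FPKM or more. The KO mean was at most 50% of the lower of the WT and NHD13 means in 20 of the 35, between 50% and 100% in 4, and at or above 100% in 11. Cd79a, part of the B cell receptor, averaged 12.9 FPKM in WT, 7.03 in NHD13 and 0.484 in KO. Cd79b, also part of that receptor, averaged 60.4, 41.4 and 39.7 FPKM, so its KO mean was 95.8% of the lower mean. Vpreb2 and Blk were at 0 in KO, where their NHD13 means were 1.80 and 0.064 FPKM. Markers that other blood cells also express stood higher, with Cd24a at 110% of the lower mean in KO, Xbp1 at 112%, Tcf3 at 121% and Sox4 at 613%. The part of a B lineage fraction in the KO levels of Ly6d, Mzb1 and Jchain was not tested. Of the 7 B cell markers that are eligible, with the B lymphoid genes named in the rule left out, these 3 are among the 38 genes, against 0.511% of all eligible genes, and Cd24a, Xbp1, Tcf3 and Sox4 are the other 4. The KO values chose the genes and the marker list was drawn with earlier results of these data known, so this share is a description only.

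Enzymes of lipid mediators, amines and detoxification formed a further group of 6. Alox5 encodes 5-lipoxygenase, which starts leukotriene synthesis. It was at 4.62, 3.31 and 3.30 FPKM in WT, 8.88, 6.90 and 9.86 in NHD13, 1.41, 2.15 and 1.61 in KO, and 0.0130, 0.0127 and 0.0355 in AML, where it had 5 counts in all. NHD13 was the highest group and AML the lowest, with no overlap between any groups. Hnmt, which inactivates histamine by methylation, was at 11.1, 12.5 and 10.3 FPKM in WT, 10.6, 11.1 and 9.56 in NHD13 and 2.1, 1.95 and 1.56 in KO, and had 0 counts in all 3 AML libraries. WT and NHD13 overlapped in Hnmt, with KO below both. Taking 3 counts over the group as the floor, Hnmt was at least 64.4-fold lower in AML than in KO and at least 359-fold lower than in NHD13.

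Plbd1, a phospholipase B-like protein of granulocytes, went the other way in AML. It was at 4.43, 4.34 and 4.05 FPKM in WT, 12, 12.8 and 13.8 in NHD13, 1.67, 1.69 and 1.71 in KO and 35.8, 39.5 and 39.1 in AML, the highest of the 38 genes there. Naaa, which breaks down N-acylethanolamine lipids in lysosomes, was at 2.22, 2.19 and 2.56 FPKM in WT, 2.02, 2.09 and 2.2 in NHD13, 0.579, 0.793 and 0.552 in KO and 29.5, 31.6 and 31.2 in AML. In both genes the KO libraries were the lowest and the AML libraries the highest of the 12. Mgst1, a membrane-bound glutathione transferase, was at 48.3 to 52.0 FPKM in WT, 76.8 to 89.4 in NHD13, 17.7 to 19.6 in KO and 24.8 to 27.8 in AML. Osgin1, a gene induced by oxidative stress, averaged 2.77, 3.43, 1.09 and 2.65 FPKM in the same order.

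Metabolic and mitochondrial genes numbered 9. Fbp1, the gluconeogenic fructose-1,6-bisphosphatase, was at 13.2 to 14.3 FPKM in WT, 22.5 to 24.9 in NHD13, 5.09 to 6.60 in KO and 2.61 to 3.69 in AML. Sqor, which oxidises hydrogen sulfide in mitochondria, was at 8.95 to 9.96, 16.7 to 18.4, 4.31 to 5.28 and 5.44 to 5.48 FPKM in that order. Prelid2, a protein of the family that carries lipids between mitochondrial membranes, was at 35.6, 37.5 and 38.4 FPKM in WT, 41.8, 40.6 and 39.9 in NHD13, 20.7, 17.0 and 15.8 in KO and 0.740, 0.718 and 0.470 in AML. It was among the most highly expressed of the genes in the first 3 groups and had 27 counts in all in AML.

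Tmem159, a lipid droplet assembly factor, was at 12.2, 8.76 and 9.54 FPKM in WT, 2.54, 2.30 and 2.37 in NHD13, 0.200, 0.236 and 0.201 in KO, and had 0 counts in AML. Arrdc4, an arrestin-like protein that restrains glucose uptake, was at 6.41, 5.38 and 4.80 FPKM in WT, 1.96, 1.84 and 2.44 in NHD13, 0.945, 1.0 and 0.942 in KO and 0.0133, 0.0386 and 0.0241 in AML. Both genes stepped down from WT to NHD13 to KO to AML without overlap. Sdhaf3, an assembly factor of succinate dehydrogenase, averaged 3.77, 2.68, 1.21 and 0.660 FPKM, Decr2, a peroxisomal reductase of fatty acid oxidation, 7.10, 3.98, 1.51 and 2.5 FPKM, and the sterol desaturase Sc5d 4.99, 5.95, 2.49 and 2.90 FPKM. Sc5d was the only one of 17 eligible genes of a cholesterol and fatty acid synthesis list to be among the 38.

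The 5 genes of the cell cycle and nucleus include Tcf19 and Cdkn2c, which took opposite courses in AML. Tcf19, a chromatin-binding protein expressed in proliferating cells, was at 19.9, 17.7 and 19.2 FPKM in WT, 16.2, 15.3 and 17.0 in NHD13, 2.83, 2.89 and 3.36 in KO and 0.0301, 0.0292 and 0 in AML, with 2 counts in all there. Cdkn2c encodes p18INK4c, an inhibitor of CDK4 and CDK6, and was at 4.39, 3.65 and 3.15 FPKM in WT, 2.28, 2.27 and 2.38 in NHD13, 0.747, 0.635 and 0.554 in KO and 4.57, 5.11 and 4.78 in AML. Thus Tcf19 was lowest in AML, while Cdkn2c was lowest in KO. Its AML libraries lay above those of WT in FPKM, a difference that did not pass the test (log2 0.15). Msantd3 averaged 16.0, 16.4, 5.16 and 0.851 FPKM, the DNA-processing nuclease-family gene Eepd1 4.54, 3.25, 1.18 and 0.353 FPKM, and the phosphatase gene Ctdspl 4.32, 4.68, 2.0 and 2.97 FPKM.

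The 7 genes of the surface, cytoskeleton and trafficking were led by Nefh and Ccdc91 in their KO ratio. Nefh, a neurofilament subunit, was at 4.86 to 5.19 FPKM in WT, 5.29 to 5.67 in NHD13, 0.657 to 1.11 in KO and 0.779 to 0.872 in AML, so KO and AML overlapped. Ccdc91, a trans-Golgi adaptor partner, was at 6.17, 6.29 and 5.62 FPKM in WT, 3.38, 3.16 and 3.73 in NHD13, 0.682, 1.02 and 0.990 in KO, and had 1 count in all in AML. App, the amyloid precursor protein, was at 2.36, 2.02 and 2.0 FPKM in WT, 5.22, 4.99 and 5.46 in NHD13, 0.704, 0.621 and 0.505 in KO and 0.140, 0.120 and 0.0710 in AML. The chondroitin sulfotransferase gene Chst13 averaged 12.1, 24.7, 5.99 and 5.72 FPKM and the scaffold gene Slc9a3r2 3.64, 5.17, 1.24 and 1.65 FPKM.

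Sh3bp5 and Tmem8 behaved like Plbd1. Sh3bp5, a guanine exchange factor for Rab11 that also binds BTK, was at 1.80 to 2.65 FPKM in WT, 2.40 to 3.46 in NHD13, 0.950 to 1.14 in KO and 14.9 to 15.3 in AML. Tmem8, named Pgap6 by RefSeq and a lipase acting on GPI-anchored proteins, was at 2.30 to 3.43, 3.97 to 5.78, 1.11 to 1.7 and 13 to 15.5 FPKM. In both, AML libraries were above all others. Among the rest, Prss50, a protease gene best known from testis, was at 19.7, 15.6 and 19.3 FPKM in WT, 4.14, 2.79 and 3.44 in NHD13, 0.874, 0.977 and 1.17 in KO, and had 0 counts in AML. Smim6 averaged 4.16, 5.58, 1.93 and 3.74 FPKM, and the long noncoding RNA 4933404O12Rik 2.43, 2.58, 1.09 and 3.18 FPKM. Gm23205, a short nuclear RNA gene of 103 bases, had 2 to 14 counts per library, which leaves its FPKM imprecise.

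The choice of genes bounds WT and NHD13 against KO but not against each other. In edgeR's quasi-likelihood test, 20 of 38 genes were higher in NHD13 than in WT (52.6%, against 25.3% of 16233 tested genes and 39.2% of tested eligible genes) and 9 were lower (23.7%, against 28.7% and 18.9%). By role, 4 of 6 genes of lipid mediators, amines and detoxification rose from WT to NHD13 and 0 fell, and 6 of 7 genes of the surface, cytoskeleton and trafficking rose and 1 fell. Of the 9 metabolic genes 5 rose and 3 fell, of the 5 cell cycle and nuclear genes 2 rose and 0 fell, and of the 7 lymphoid and secretory genes 1 rose and 4 fell. The median log2 fold change was 0.45 over the 38 genes and -0.04 over all tested genes. The largest rises in log2 fold change were in Plbd1 (1.97 ± 0.08 SE, adjusted p = 4.34e-13), App (1.68 ± 0.11), Alox5 (1.57 ± 0.15), Chst13 (1.42 ± 0.08), Sqor (1.26 ± 0.08) and Fbp1 (1.2 ± 0.10). The largest falls were in Myl10 (-2.41 ± 0.12, adjusted p = 4.03e-12), Ly6d (-2.13 ± 0.16), Prss50 (-2.02 ± 0.15), Tmem159 (-1.7 ± 0.14), Arrdc4 (-1.02 ± 0.13) and Fkbp11 (-0.58 ± 0.08). All 3 NHD13 libraries lay above all 3 WT libraries in each of these 6 genes that rose, and below them in each of these 6 that fell, in FPKM.

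The split depends on scaling. The FPKM values carry no correction for composition, and on that scale the median over all tested genes moved to -0.21 on log2(FPKM + 1), against -0.04 with TMM factors. On log2(FPKM + 1) with limma, 13 of the 38 genes were higher and 15 lower in NHD13 than in WT, where 10.4% and 51.2% of all tested genes were. The 12 genes named above kept their direction on both scales. Jchain, called higher (adjusted p = 0.042), was not called on log2(FPKM + 1) (adjusted p = 0.30) or without WT replicate 1 (0.11), WT replicate 2 (0.14), NHD13 replicate 1 (0.13) or NHD13 replicate 2 (0.14). Neutrophil markers were higher in NHD13 in the sums given above, and their part in the rise of Plbd1, Alox5, Chst13 and Mgst1 was not tested.

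**Figure D2:**
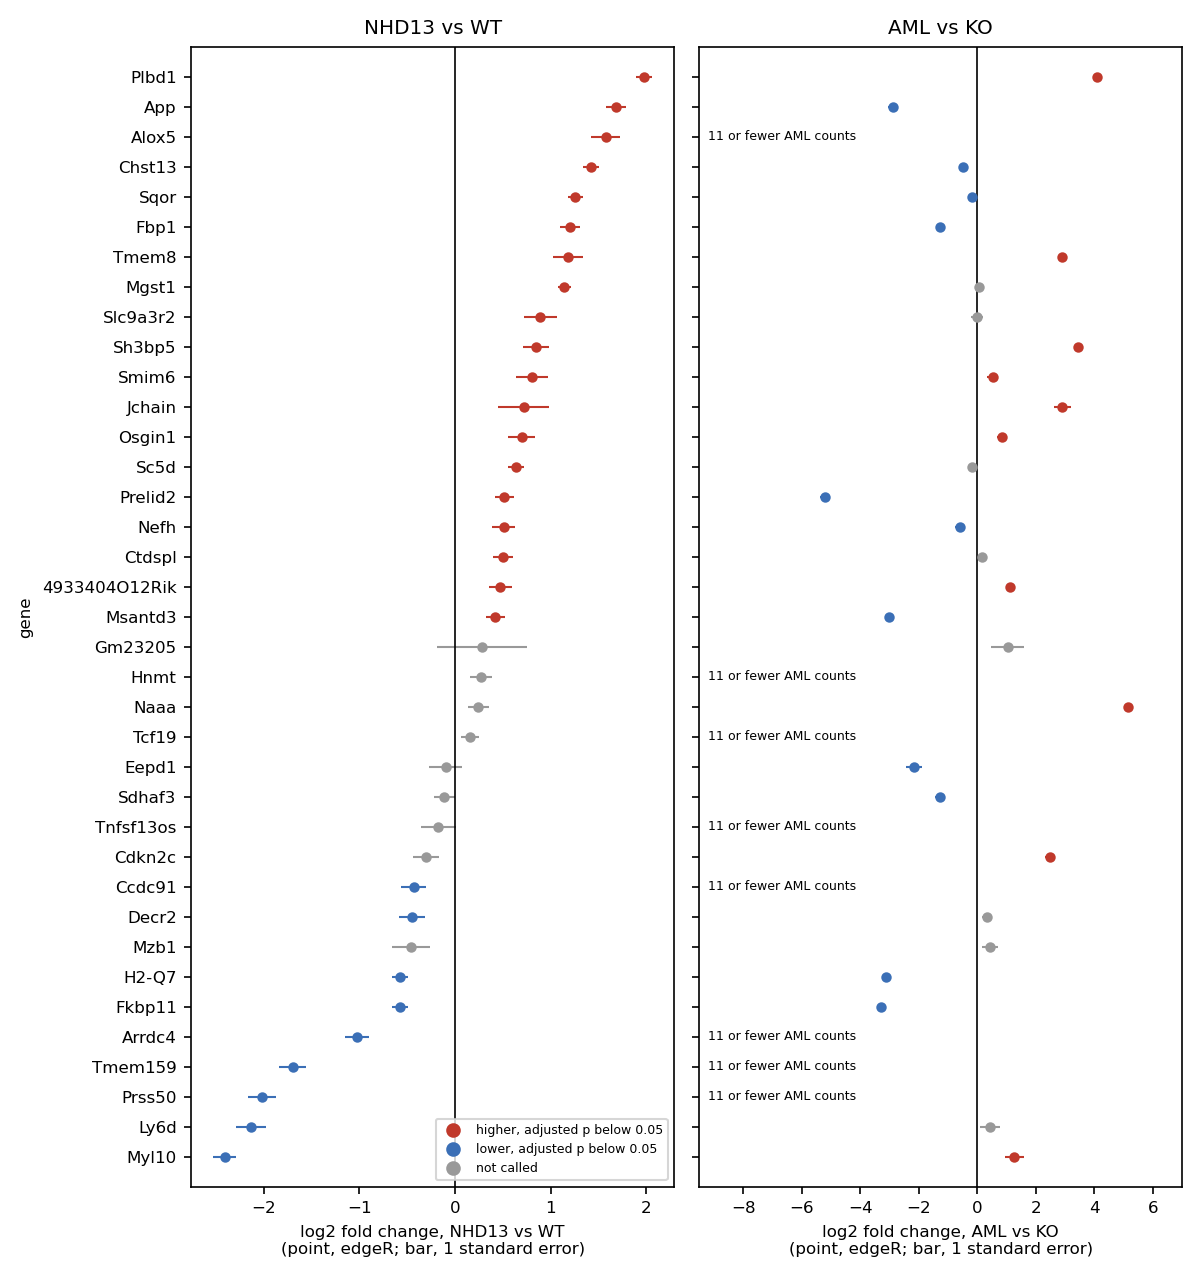
Log2 fold changes of 37 of the 38 genes from edgeR with 1 standard error, for NHD13 against WT (left) and AML against KO (right), genes in the same order in both. Red is higher and blue lower at an adjusted p below 0.05, and 8 genes with 11 or fewer AML counts are written out instead of plotted on the right; genes that rose in NHD13, such as Plbd1 and App, went in opposite directions in AML.

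AML libraries took no part in the choice, and there 13 of the 38 genes were at 10% or less of the lower of the WT and NHD13 means while others were raised. These 13 are 34.2% of the set, against 1.83% of eligible genes. The AML mean was under 1 FPKM in 15 of 38 (39.5%, against 2.69%). The eligible genes are not matched for level. Their median means were 12.1 FPKM in WT and 9.95 in NHD13, against 5.39 and 5.33 in the set. At most 50% of the lower mean was seen in 21 of 38 (55.3%, against 20%), and 8 of 38 reached or passed the lower mean (21.1%, against 55.3%). The WT and NHD13 libraries in these ratios are the same ones that chose the genes, and the AML cells carry the same transgene and KO label as the KO cells, so the KO and AML levels are not independent of each other by design. The limit of 10% was chosen after the values were seen.

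**Figure D3:**
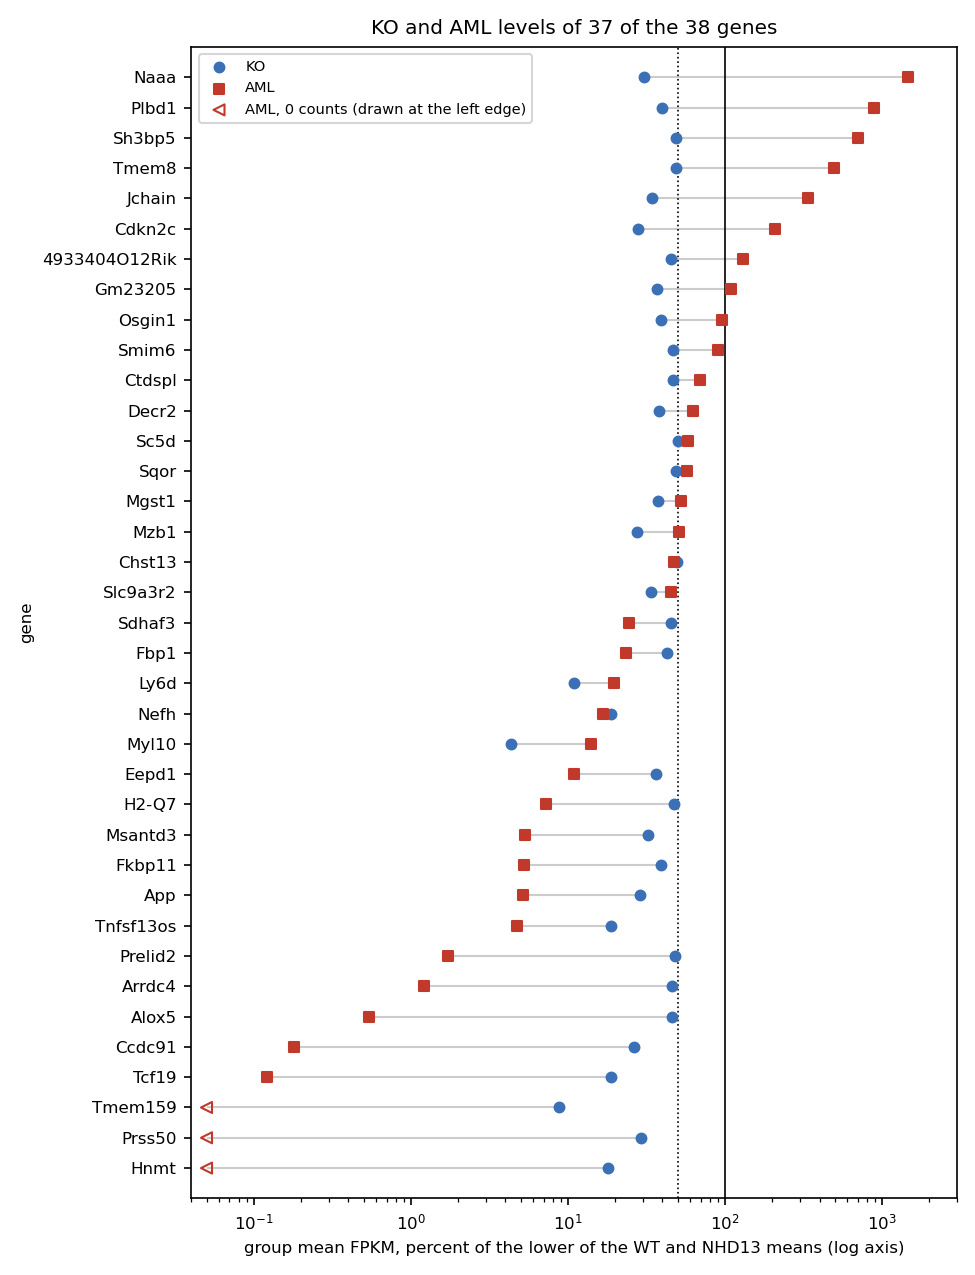
KO (blue circles) and AML (red squares) group means of 37 of the 38 genes as a percent of the lower of the WT and NHD13 means, log axis, 1 gene per row; the dotted line is 50% and the solid line 100%. KO points lie at or left of 50% by the choice of genes, while AML runs from 0 counts in Hnmt, Prss50 and Tmem159 (open triangles) to 1462% in Naaa.

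The 13 genes lowest in AML by this measure were Hnmt, Prss50, Tmem159, Tcf19, Ccdc91, Alox5, Arrdc4, Prelid2, Tnfsf13os, App, Fkbp11, Msantd3 and H2-Q7. With the floor of 3 counts over the group, Prss50 was at least 28.7-fold and Tmem159 at least 8.19-fold lower in AML than in KO. Both were lower still against WT, by at least 517-fold in Prss50 and at least 391-fold in Tmem159. Where counts allowed a fold, AML was lower than KO by log2 values of -5.19 ± 0.18 in Prelid2, -3.30 ± 0.12 in Fkbp11, -3.12 ± 0.10 in H2-Q7, -3.01 ± 0.15 in Msantd3 and -2.88 ± 0.18 in App (SE, edgeR's quasi-likelihood test, adjusted p from 1.18e-15 to 1.78e-11). The largest rises from KO to AML were in Naaa (5.15 ± 0.12, adjusted p = 1.69e-17), Plbd1 (4.08 ± 0.09), Sh3bp5 (3.44 ± 0.14), Tmem8 (2.91 ± 0.17), Jchain (2.91 ± 0.29) and Cdkn2c (2.49 ± 0.16). All of these but Cdkn2c were also higher in AML than in WT.

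Counted over the set, 11 of 38 genes were higher in AML than in KO (28.9%, against 42.8% of tested genes and 31.9% of tested eligible genes). A total of 19 were lower (50%, against 39.5% and 56.1%), so both shares were somewhat below those of the eligible genes. By role, 3 of the 6 lipid, amine and detoxification genes were higher and 2 lower in AML than in KO, and of the 9 metabolic genes 1 was higher and 6 were lower. KO is low in these genes by choice. Against WT, 5 genes were higher in AML (13.2%, against 41.7% of tested and 34% of eligible genes) and 28 lower (73.7%, against 43% and 55%). Against NHD13, 6 were higher (15.8%, against 43.3% and 29.5%) and 31 lower (81.6%, against 39.1% and 58.2%). These comparisons share the AML libraries. Sqor was called lower in AML than in KO by a small margin (log2 -0.19, adjusted p = 0.045), lost the call without KO replicate 2 (adjusted p = 0.35), KO replicate 3 (0.054) or any 1 AML replicate (0.086 to 0.11), and was higher on log2(FPKM + 1) (0.19). On that scale 19 of the 38 genes were higher in AML than in KO, with a median over all genes of 0.21 against 0.07 with TMM factors, and for AML against NHD13 that median was 0.29 against 0.09. Of the 20 genes that rose in NHD13, 8 were higher and 8 lower in AML than in KO. Of the 9 that fell in NHD13, 6 were lower again in AML and 1, Myl10, was higher.

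DNA methylation was not used in the choice. The authors' deposited table of regions that differ between NHD13 and KO placed a region of higher KO methylation within 2 kb of an annotated start in 11 of the 30 genes that have one in the promoter table (36.7%), against 8.46% of eligible genes with a start. Lower KO methylation was listed near 3 of the 30 in the authors' deposited table (10%, against 10.4%). In the authors' deposited table of KO and AML, 14 of 30 had a region of higher AML methylation near a start (46.7%, against 8.96%) and 7 a region of lower AML methylation (23.3%, against 10.2%). From WT to NHD13, higher methylation was listed near 7 of 30 starts (23.3%, against 6.07%) and lower near 3 (10%, against 20.8%) in the authors' deposited table. Each side is 1 library and the tables give no coverage, so these counts have no replicate check and no test. The eligible genes are matched neither for level nor for the CpG content of start windows, with a median of 12 CpG dinucleotides in the set and 21 in eligible genes. The window of 2 kb around starts was chosen after the data were seen, and over whole gene spans with 2 kb on each side the shares with higher methylation in the authors' deposited tables were 50% against 22.7% for NHD13 to KO, 55.3% against 28.5% for KO to AML and 39.5% against 15.5% for WT to NHD13. Over spans, lower methylation in the authors' deposited tables was listed for 31.6% against 31.5%, 47.4% against 27.9% and 44.7% against 45.1% in the same order, so from KO to AML both directions were above the eligible genes.

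Of the 14 genes with gained AML methylation near a start in the authors' deposited table, 9 are among the 13 lowest in AML. Of the 10 of those 13 that have an annotated start, 9 had a region of higher AML methylation near it in the authors' deposited table, the exception being Fkbp11. The authors' deposited table gave such a region to 5 of the other 20 genes, and to 17 of 52 eligible genes outside the set whose AML mean was also at most 10% (32.7%). At Alox5 a region of 691 bases, chr6:116460560-116461250, went from 45.1% methylation in KO to 95.6% in AML in the authors' deposited table, and a region inside it went from 23.0% in NHD13 to 46.8% in KO. Prss50, by the authors' deposited tables, also gained in both steps, from 47.2% in NHD13 to 67.2% in KO over chr9:110857873-110858189 and from 67.4% to 93.4% in AML over chr9:110857626-110858358. The earlier region reaches 29 bases into the printed Alox5 window, and the earlier Prss50 region covers 141 bases of that printed window.

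For Tcf19, Ccdc91, Arrdc4 and Hnmt, the authors' deposited table of NHD13 and KO lists no region within 2 kb of a start. An earlier gain that close, from WT to NHD13, is in the authors' deposited table for all of these but Ccdc91. It went from 61.4% to 85.3% in Tcf19, from 11.95% to 28.5% in Arrdc4 and from 27.3% to 56.9% in Hnmt. In Arrdc4 and Hnmt, but not in Tcf19, the earlier region shares bases with the KO to AML region given below. Tcf19 went from 16.1% in KO to 60.3% in AML over 1358 bases (chr17:35516347-35517704) in the authors' deposited table. Ccdc91 went from 7.19% to 51.0% over 867 bases (chr6:147475832-147476698), again by the authors' deposited table, although a further region near its start was lower in AML (84.6% to 45.2%). Arrdc4 went from 19.3% to 60.5% over chr7:68748666-68749733 and Hnmt from 35.8% to 78.1% over chr2:24048286-24049121 in the authors' deposited table. These regions cover the whole printed windows of Tcf19, Ccdc91 and Arrdc4, while that of Hnmt lies inside the gene, centred 676 bases after the start. App went from 20.6% to 53.6%, H2-Q7 from 33.3% to 83.6% and Msantd3 from 44.6% to 64.6% in the authors' deposited table, and all 3 also had a region of higher methylation from NHD13 to KO within 2 kb of a start. In Msantd3 that region was centred 1113 bases from a start, while a region over a start, chr4:48540264-48540767, was lower in KO (42.5% to 22.3%) in the authors' deposited table. Tmem159 has no start in the promoter table, but a region of 1460 bases over the low-coordinate end of its span, chr7:120102109-120103568, went from 28.5% to 69.7% in the authors' deposited table.

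**Figure D4:**
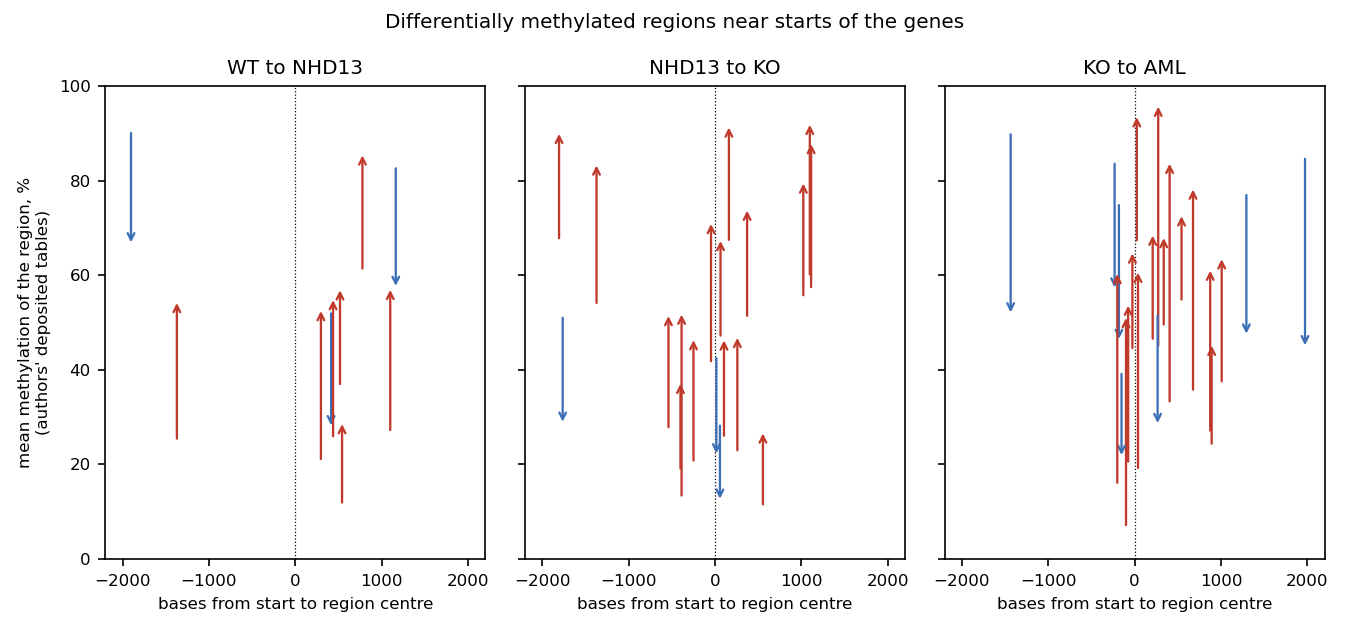
Regions within 2 kb of starts of the 38 genes in the authors' deposited tables: each arrow runs from the methylation of the first library to that of the second, placed at the distance of the region's centre from the start. Red arrows rise and blue arrows fall; the KO to AML panel holds the highest end point, Alox5 at 95.6%, up from 45.1%.

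Methylation and RNA did not always move in opposite ways. Plbd1, raised in AML, had a region of higher methylation near its start in each step of the authors' deposited tables. These went from 37.0% in WT to 56.8% in NHD13, from 26.1% in NHD13 to 46.2% in KO and from 46.6% in KO to 68.4% in AML. The WT to NHD13 region and the NHD13 to KO region share no bases, and the KO to AML region overlaps both in part. Cdkn2c and Tmem8, also raised in AML, each had a region of higher AML methylation near the start in the authors' deposited table (24.4% to 45.1% and 37.6% to 63.4%). Myl10 rose from 41.8% in NHD13 to 70.8% in KO over its start, chr5:136692812-136693389, and a shorter region there fell from 74.8% to 46.5% in AML in the authors' deposited tables, while its RNA fell and then rose slightly. Mgst1 went from 13.4% in NHD13 to 51.7% in KO over chr6:138140992-138141408 in the authors' deposited table, with no region near its start from KO to AML. Nefh went the other way, from 77% in NHD13 to 27.8% in KO over a region within 2 kb of its span in the authors' deposited table. Over the genome, 77.6% of the regions between NHD13 and KO in the authors' deposited table were higher in KO, and the part of this overall shift in the counts above was not tested.

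H3K36me3, which marks transcribed gene bodies, was measured in leukemic spleen cells only. A broad peak of the authors overlapped 22 of 38 gene spans in NHD13 - AML (57.9%, against 88.4% of eligible genes) and 1 of 38 in NHD13/Setd2 KO - AML (2.63%, against 61.4%). The median share of the span under peaks in NHD13 - AML was 3.34%, against 64.1% over eligible genes. Spans were of like length, with a median of 16532 bases against 17372. In NHD13 - AML, peaks covered 100% of Smim6, 70.5% of H2-Q7, 63.1% of Sc5d, 60.7% of 4933404O12Rik and 59.9% of Chst13, and the single overlap in NHD13/Setd2 KO - AML covered 0.548% of the span. The lists differ in extent, with 30953 peaks over 193 Mb in NHD13 - AML and 16902 over 28.4 Mb in NHD13/Setd2 KO - AML, each from 1 library of unknown depth.

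The share with a peak was set against the RNA level in AML, which was measured in NHD13/Setd2 KO - AML cells only. Counting any overlap, 9 of 15 genes under 1 FPKM had a peak in NHD13 - AML, against 16.9% of other eligible genes at that level. Peaks covered 0.208% of the span in Ccdc91, 0.722% in Alox5, 2.005% in Sdhaf3 and 4.67% in Eepd1. Coverage was 11.9% in Tmem159, 16.9% in Nefh, 30.7% in Tcf19, 42.6% in Msantd3 and 49.98% in App. With only peaks above the median fold enrichment, Alox5, Ccdc91, Sdhaf3 and Tmem159 had none. Again by any overlap, 11 of 17 genes at 1 to under 10 FPKM had a peak in NHD13 - AML (82.1% of others). At 10 FPKM or more 2 of 6 did (94.8% of others), which are Mgst1 and Sh3bp5. Of the 11 genes higher in AML than in KO, Naaa, Plbd1, Tmem8, Jchain, Cdkn2c, Myl10 and Osgin1 had no peak in either list. Over the whole set, 16 of 38 genes had none in either (42.1%, against 11.3% of eligible genes).

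**Figure D5:**
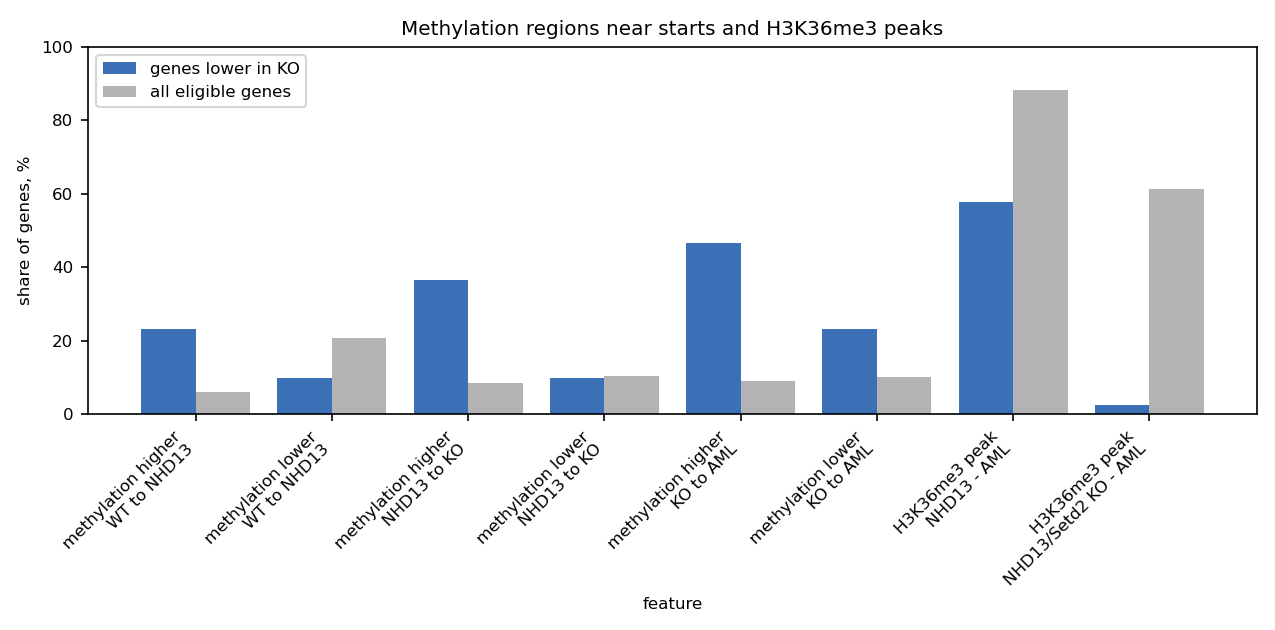
Share of genes, in percent, with a methylation region of the authors' deposited tables within 2 kb of a start (30 of the genes, 5637 eligible genes) and with an H3K36me3 peak of the authors over the span (38 and 7243 genes). Blue bars are the genes lower in KO and grey bars all eligible genes; blue exceeds grey for higher methylation in each step, 46.7% against 8.96% from KO to AML, and is below it for both peak lists.

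The genes lay on 15 autosomes, with 6 on chromosome 6 and 5 on chromosome 17. A second gene of the set lay within 500 kb of 6 of the 38 (15.8%), where 3.89% of eligible genes had one that close. The pairs were Tmem8 with Decr2, 22430 bases apart on chromosome 17, Tcf19 with H2-Q7, 68957 bases apart in the MHC region of chromosome 17, and Myl10 with 4933404O12Rik, 217289 bases apart on chromosome 5. The first and last pair differed within the pair in AML, with Tmem8 and Decr2 at 14.1 and 2.5 FPKM and Myl10 and 4933404O12Rik at 0.791 and 3.18 FPKM, while Tcf19 and H2-Q7 both fell from KO to AML.

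The composition of the start regions was compared with that of other genes. RefSeq start windows of 300 bases were given for 30 of the 38 genes, 41 windows in all. Their median number of CpG dinucleotides was 12, against 21 in windows of eligible genes and 7 in all windows. The letters GGGCGG, searched on both strands, were in 61% of the windows, against 63.5% of those of eligible genes and 35.7% of all, and TATAAA was in 2.44%, against 7.09% and 13.6%. A match is a description of the letters in the window only.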

How the data were processed

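RNA libraries carry gene counts that the authors deposited as raw reads per Ensembl gene, and FPKM that the authors deposited beside them. Per the submitters' processing notes, HISAT2 2.0.5, HTSeq 0.9.1, Bowtie2 2.2.9, SAMtools 1.7, MACS2 2.1.1.20160309, Bismark 0.19.0 and DESeq2 1.22.2 were used with mm10; annotation release, strand setting and the caller of methylation regions are not stated there. Each deposited FPKM equals the count divided by gene length and column total, with no correction for composition (largest relative difference 1.81e-13). The authors' region tables give methylation as a fraction of each side, with a difference score and a region score, and no coverage; each side is 1 bisulfite library. Which side is which was taken from the order of the group names and checked over regions shared between tables (4032 and 2467). The deposited peak lists give a score, a fold enrichment and −log10 p and q for each broad peak; of these only the fold enrichment was used, in an alternative.

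Genes were tested on counts with edgeR 4.0.16 (R 4.3.3; filterByExpr, TMM, robust quasi-likelihood test, 12 libraries in 1 model), with Benjamini-Hochberg adjustment over 16233 genes and a threshold of 0.05. DESeq2 1.42.0 and limma 3.58.1 on log2(FPKM + 1) were alternatives, with other scalings, filters, each replicate left out and the replicate number as a block. The test was checked on simulated counts. The genes and lists were chosen with earlier results of these data known. Named genes are those with the highest ratios, the highest levels, the highest and lowest AML shares, the largest changes between NHD13 and WT, list members and threshold neighbours; the remaining names, the roles and the windows around starts were chosen after values were seen. RefSeq tables gave positions, starts and sequences. Replicate numbers did not pair the libraries. Some items, 1 gene of the set among them, are counted but not reported here by name.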

Additional observations from a re-analysis of the deposited data

How the results depend on the processing

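The number of genes that met the rule moved with its thresholds: 76 at a floor of 1 FPKM, 13 at 5 FPKM, 14 with KO at most 1 part in 3 of both means, and 34 to 50 when 1 replicate was left out. With TMM-scaled FPKM it was 41, of which 27 are among the 38. Counts of calls among the 38 stayed within 1.5 times under other count scalings, filters and tools, except on log2(FPKM + 1) with limma (NHD13 against WT 13 higher and 15 lower; AML against KO 19 higher) and on log2(FPKM + 0.1) (12 higher; 19 higher). Leaving out 1 replicate gave 19 to 21 higher and 8 to 10 lower for NHD13 against WT, 10 to 13 higher and 18 to 19 lower for AML against KO, 5 higher and 28 to 29 lower for AML against WT, 6 higher and 30 to 31 lower for AML against NHD13, and 37 to 38 lower for KO against either group. Directions turned, with limma's test passed after the turn, in a few genes. On log2(FPKM + 1) these were Tcf19 in NHD13 against WT (-0.22) and 4933404O12Rik in AML against NHD13 (0.22). Sqor (0.19) and Sc5d (0.16) also turned on that scale, in AML against KO. On log2(FPKM + 0.1) they were Sqor (0.23), Sc5d (0.21) and 4933404O12Rik (0.29), in the same comparisons. The cause was not tested. Of 3408 values for single genes, 3298 kept their call, 53 passed the test newly, 50 no longer passed and 7 turned. A value that changed sign without passing the test in either setting is counted among the 3298. Single calls lost by edgeR's test without 1 library include Smim6 in AML against KO (adjusted p = 0.088 without AML replicate 2) and Decr2 in NHD13 against WT (0.063 without NHD13 replicate 1).

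With the replicate block the counts were 20 higher and 9 lower for NHD13 against WT, 11 and 18 for AML against KO, 5 and 28 for AML against WT, 6 and 31 for AML against NHD13, and 38 and 37 lower for KO against NHD13 and WT. Among 18 pairs of libraries with the same number, deviations correlated from -0.0876 to 0.109 and 1 pair passed 0.1, so the libraries share only a number. Under the block Jchain in NHD13 against WT (adjusted p = 0.062) and Sqor in AML against KO (0.054) were not called by edgeR.

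A methylation difference of 0.3 or more was also required in the authors' deposited tables. Gene spans with a higher and lower second side then numbered 4 and 11 of 38 for WT to NHD13 (10.5% and 28.9%, against 4.94% and 23.7% of eligible genes). For NHD13 to KO they were 11 and 6 (28.9% and 15.8%, against 8.37% and 11.6%). For KO to AML they were 12 and 7 (31.6% and 18.4%, against 10.5% and 10.5%). Starts in the same order numbered 1 and 0 of 30 (3.33% and 0%, against 0.887% and 7.75%) and 3 and 0 (10% and 0%, against 2.13% and 1.92%). For KO to AML, starts numbered 8 and 2 (26.7% and 6.67%, against 2.84% and 2.15%). Within 5 kb of a start, the authors' deposited table gave lower regions to 10 of 30 genes for WT to NHD13 (33.3%, against 33.4%). The authors' deposited tables gave them to 7 for NHD13 to KO (23.3%, against 16.6%) and 12 for KO to AML (40%, against 17.7%). Within 1 kb, the authors' deposited table gave them to 4 for KO to AML (13.3%, against 6.71%). With only peaks above the median fold, 14 of 38 genes had an H3K36me3 peak in NHD13 - AML (36.8%, against 82.5%). In NHD13/Setd2 KO - AML 0 did (0%, against 45.5%). With 50% or more of the span covered, they were 6 in NHD13 - AML (15.8%, against 63.9%) and 0 in NHD13/Setd2 KO - AML (0%, against 6.35%). Covered in NHD13 - AML alone were 6 (15.8%, against 57.6%). Methylation and H3K36me3 rest on 1 library a side without coverage, and genes with few AML counts are limited by depth.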
